A study of Mus musculus with 8 samples.

Results

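Stem-gated cells are the cells of a blood stem cell sort whose own RNA held both Mecom and Hlf, transcription factors of hematopoietic stem cells, and little of any other lineage. They were compared between bone marrow and spleen of mice 2 days after birth (P2). A cell was kept with at least 1 UMI (unique molecular identifier, a count of 1 captured RNA molecule) of Mecom, at least 1 of Hlf, fewer Mpo than Mecom UMIs, and none of Cd79a, Elane or Mcpt8. It also needed at least 1000 genes, at least 2000 UMIs and at most 10% mitochondrial UMIs. Members were thus chosen by the measured counts of these 6 genes and by depth. This left 6861 cells, 3077 of bone marrow and 3784 of spleen, out of 20457 cells of these tissues that passed the filters and 42451 barcodes in the whole series. The genes of the gate chose the cells, so their levels below are a description and carry no test.

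The series used droplet RNA-seq on a sort for the surface phenotype Epcr+Lin-Sca-1+Kit+. Both tissues were sampled in 3 sources, all 2 days old. The pool was wild-type (WT) mice, 7 merged animals, with bone marrow and spleen loaded as separate reactions in the batch labelled 1. Pup 1 and pup 2 were Tppp3CreER LSLTdTomato animals given tamoxifen at P0, in the batch labelled 3, and their tdTomato-negative cells were used here. In this genotype a Cre recombinase driven by Tppp3 switches on a red reporter after tamoxifen, so the cells used are those in which the reporter was not seen by the sorter. In each pup both tissues were tagged with hashtag antibodies (antibodies carrying a DNA barcode) and loaded in 1 tube, pup 2 in tube 1 and pup 1 in tube 2. Sex is given as unknown. Per the labels, bone marrow was released by crushing bones while spleen was chopped, and both were then filtered, freed of red cells and enriched for c-Kit with beads. Tissue and dissociation therefore cannot be told apart in any of the 3 sources. The pool is 1 sample of merged animals, and each pup is 1 animal.

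Hematopoietic stem cells move into the bone marrow around birth, and at this age blood is also formed in the spleen. Immediate early genes are switched on within minutes of a signal, without new protein synthesis, and many encode subunits of AP-1, the dimer of Fos and Jun family proteins. The same genes also respond to handling and dissociation of tissue. Oxidative phosphorylation genes encode the respiratory chain of mitochondria, which stem cells at rest are known to use sparingly.

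For Jun, Fosb and Ppp1r15a, and for Fos as the partner of Jun, the RefSeq promoter (250 bases before the transcript start, GRCm38.p6, all read 5′ to 3′ on the gene's own strand) is shown so that the cyclic AMP and AP-1 type motifs can be seen. Jun lies on the minus strand at chr4:95049034-95052222, Fosb on the minus strand at chr7:19302696-19310051, Ppp1r15a on the minus strand at chr7:45522916-45526268 and Nfkbiz on the minus strand at chr16:55811375-55838899 (mm10). Fos lies on the plus strand at chr12:85473890-85477273. Capitals mark matches, on either strand, to TGACGTCA (the cyclic AMP response element), to TGACG (its first 5 bases, so every TGACGTCA holds it too) or to TGACATCA (a variant). TGANTCA, the AP-1 element, was searched as well and had no match in these 4 windows.
Jun: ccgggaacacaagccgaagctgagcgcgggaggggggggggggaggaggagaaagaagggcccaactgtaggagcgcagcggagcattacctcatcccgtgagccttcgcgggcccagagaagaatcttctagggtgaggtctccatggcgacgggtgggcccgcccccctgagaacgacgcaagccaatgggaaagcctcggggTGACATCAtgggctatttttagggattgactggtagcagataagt
Fosb: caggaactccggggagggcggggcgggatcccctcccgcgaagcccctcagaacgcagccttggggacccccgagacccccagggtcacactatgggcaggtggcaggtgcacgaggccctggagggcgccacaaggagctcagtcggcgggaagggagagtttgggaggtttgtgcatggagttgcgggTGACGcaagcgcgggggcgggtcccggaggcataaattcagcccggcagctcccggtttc
Ppp1r15a: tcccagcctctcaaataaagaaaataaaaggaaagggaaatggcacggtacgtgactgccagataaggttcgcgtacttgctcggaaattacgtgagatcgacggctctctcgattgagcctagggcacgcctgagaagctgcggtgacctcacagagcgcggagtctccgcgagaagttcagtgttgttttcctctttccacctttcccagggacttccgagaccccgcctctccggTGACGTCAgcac
Fos: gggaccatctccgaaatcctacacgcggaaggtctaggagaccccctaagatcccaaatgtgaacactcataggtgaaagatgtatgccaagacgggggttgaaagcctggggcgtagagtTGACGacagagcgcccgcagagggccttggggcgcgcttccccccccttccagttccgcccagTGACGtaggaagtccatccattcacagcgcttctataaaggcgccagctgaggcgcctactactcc
In Jun the TGACATCA match ends 38 bases before the start, in Fosb TGACG ends 56 bases before it, in Ppp1r15a TGACGTCA ends 5 bases before it, and in Fos TGACG begins 129 and 66 bases before it. Of the 36 immediate early genes tested below, 29 had a promoter entry, and 16 of these (55.2%) held TGACG, 4 (13.8%) TGACGTCA, 2 (6.90%) TGACATCA and 0 TGANTCA. Over all 27025 promoters of that length the shares were 17.9%, 1.62%, 3.02% and 6.87%. The motifs were chosen after these sequences had been seen, and a match is only a run of letters.

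The 6 sums of stem-gated cells held between 5593174 and 28202605 UMIs. Stem-gated cells of the pool, pup 1 and pup 2 had medians of 6185, 16740 and 18769 UMIs in bone marrow and of 6614, 23154 and 21703 in spleen, so in all 3 sources the bone marrow cells were the shallower ones. Marker lists of the other lineages given here overlapped between the tissues. Summed over each list, stromal and osteolineage genes reached 23.1 to 48.5 CPM (the usual UMI count scaled to library size, here with TMM factors) and hepatocyte genes 27.4 to 40.7 CPM over the 6 sums, with Alb, Ttr, Serpina1a, Fgb, Fga and Ahsg at 0 in all 6. Erythroid genes summed to 1818, 673 and 508 CPM in bone marrow and 1762, 746 and 534 CPM in spleen. Neutrophil and granule genes summed to 371, 173 and 98.9 CPM in bone marrow and 270, 217 and 73.5 CPM in spleen. In the hashtag data, the bone marrow tags had a median of 129 counts in tube 1 and 88 in tube 2 in cells led by another tag, against 7 and 4 for the spleen tags, and these medians were subtracted first. The pool libraries of bone marrow and spleen shared 16 cell barcodes, 1 of them among stem-gated cells of both. The tubes shared 3, 1 of them among gated cells.

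Stem-gated cells made up very different shares of what each sort delivered. In bone marrow they were 1443 of 6550 cells in the pool (22.03%, exact 95% binomial interval 21.0 to 23.1), 302 of 530 in pup 1 (57.0%, 52.6 to 61.2) and 1332 of 1441 in pup 2 (92.4%, 90.9 to 93.7). In spleen they were 1522 of 9043 (pool, 16.8%, 16.1 to 17.6), 1175 of 1737 (pup 1, 67.6%, 65.4 to 69.8) and 1087 of 1156 (pup 2, 94.0%, 92.5 to 95.3). The intervals cover counting error only, and the order of the tissues was not the same in the 3 sources. With every cell thinned to 5000 UMIs, which left out 1543, 49 and 32 shallower bone marrow cells and 2888, 104 and 25 shallower spleen cells, the shares were 17.0%, 57.8% and 80.1% in bone marrow and 15.3%, 65.0% and 77.7% in spleen. The edge of the gate mattered mainly in the pool, where 40 bone marrow and 53 spleen cells had exactly 1 UMI each of Mecom and Hlf, while 311 and 315 cells met every other condition with Hlf at 0. Mecom itself was at 979, 1039 and 949 CPM in bone marrow and 947, 960 and 898 CPM in spleen. Hlf was at 544, 914 and 680 CPM in bone marrow and 533, 738 and 589 CPM in spleen.

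Of the genes of the sort, Procr, which encodes Epcr, was at 31.5, 50.4 and 31.8 CPM in the pool, pup 1 and pup 2 in bone marrow and 33.5, 36.4 and 29.7 CPM in spleen. Ly6a (Sca-1) was at 76.5, 41.0 and 89.3 CPM in bone marrow and 65.3, 42.3 and 87.5 CPM in spleen. Kit, the receptor of stem cell factor, was at 192, 281 and 229 CPM in bone marrow and 241, 232 and 204 CPM in spleen. The sorted surface genes were therefore present in all 6 sums, and unpaired values of the tissues overlapped. Within sources, Procr and Kit were higher in bone marrow in both pups and lower in the pool. Of 26 tested genes listed for the sort and stem cell surface, none passed with all sources, with a median log2 fold change of 0.04. Without the pool, edgeR called 9 of the 26 higher, against 6.98% of all genes, and 1 lower, against 11.2%. Procr and Kit were among the called genes.

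Bone marrow stem-gated cells carried more RNA of 4 genes, 3 of them on the immediate early list, than spleen stem-gated cells of the same animals. The 4 that rose were Jun, Ppp1r15a, Nfkbiz and Fosb, which was 0.0284% of 14101 genes tested (edgeR quasi-likelihood test with source as a block, Benjamini-Hochberg adjusted p under 0.05). No gene fell, which was 0% of those tested. At an unadjusted p under 0.05, 816 genes (5.79%) were on the bone marrow side and 978 (6.94%) on the spleen side. The median log2 fold change of all genes was -0.01, a value that TMM scaling itself holds near 0.

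Jun encodes the AP-1 subunit that can pair with itself or with a Fos protein. It was at 125, 130 and 189 CPM in bone marrow of the pool, pup 1 and pup 2, against 64.4, 63.2 and 80.1 CPM in spleen. Every bone marrow value lay above every spleen value. Means were 148 ± 35.9 CPM in bone marrow and 69.2 ± 9.42 CPM in spleen (SD, n = 3 each), and the log2 fold change was 1.09 ± 0.08 (SE; edgeR adjusted p = 0.00498).

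Fosb, a Fos family subunit that pairs with Jun proteins, had the largest change of the 4. It was at 29.1, 7.28 and 13.96 CPM in bone marrow, against 0.915, 1.25 and 2.23 CPM in spleen. The groups did not overlap, and the pool gave both the highest bone marrow and the lowest spleen value. The log2 fold change was 3.13 ± 0.33 (edgeR adjusted p = 0.0218), and the 3 sources gave 4.92, 2.54 and 2.63. In the pool this rested on 269 UMIs in bone marrow cells, at most 6 in 1 cell, against 9 UMIs in spleen cells. In pup 1 it rested on 46 UMIs in bone marrow and 37 in spleen, from 302 and 1175 cells, and in pup 2 on 380 and 55 UMIs.

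Ppp1r15a encodes Gadd34, the phosphatase subunit that reverses phosphorylation of the translation factor eIF2alpha. It was at 32.3, 34.2 and 39.1 CPM in bone marrow and 17.3, 16.5 and 19.3 CPM in spleen, the tightest of the 4 between sources. The log2 fold change was 1.00 ± 0.08 (edgeR adjusted p = 0.00659). Nfkbiz encodes IkappaB-zeta, a nuclear partner of NF-kappaB. It was at 45.5, 40.7 and 61.8 CPM in bone marrow and 24.9, 24.1 and 29.0 CPM in spleen, again without overlap, with a log2 fold change of 0.92 ± 0.09 (edgeR adjusted p = 0.0144).

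**Figure D1:**
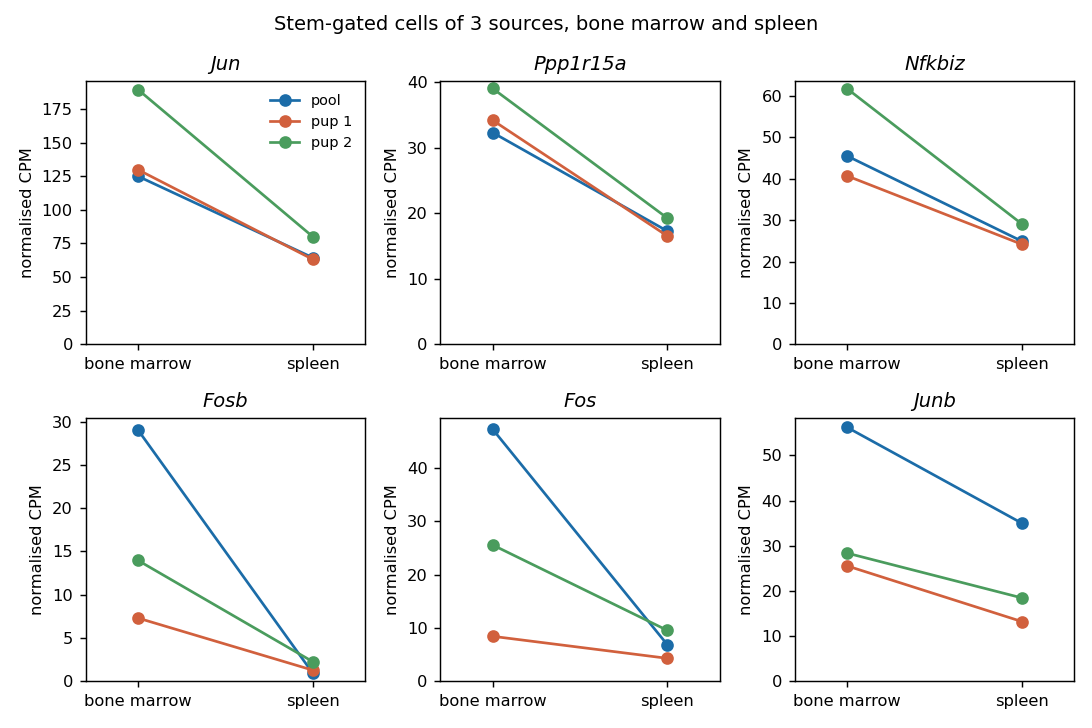
Normalised CPM (vertical axes, linear from 0) of the 4 genes that passed the test and of Fos and Junb, in bone marrow (left) and spleen (right). Each line joins both tissues of 1 source. Every line falls towards spleen, by 0.92 to 3.13 on the log2 scale in the fit for the 4 called genes.

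These 4 calls depended on pairing the tissues of a source. Without the block no gene was called (112 genes at an unadjusted p under 0.05), and the 4 had unadjusted p-values of 8.41e-05 to 0.00118 with log2 fold changes of 0.93 to 3.46. DESeq2 called 7 genes higher (0.166% of 4225 with an adjusted p) and 45 lower (1.07%), and of the 4 it called Jun (adjusted p = 5.47e-18). The others had no adjusted p there, since its filter on mean counts gave one to 4225 of 17325 genes, and their unadjusted p-values in DESeq2 were 3.71e-06 for Fosb, 5.77e-11 for Ppp1r15a and 1.30e-10 for Nfkbiz. Leaving out any 1 source kept all 4 calls (edgeR), including without the pool, where both tissues of each remaining source came from the same tube. In that fit 1024 genes were called higher (6.98% of 14679) and 1649 lower (11.2%), so calls within a list there are to be read against those shares.

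The rest of the Fos and Jun family did not pass the threshold in the reported fit of all stem-gated cells. DESeq2 called Jund higher, and edgeR with 302 cells drawn per sum called Fos, Junb and Jund higher. Fos, the founding immediate early gene, was at 47.4, 8.39 and 25.6 CPM in bone marrow and 6.81, 4.25 and 9.51 CPM in spleen. The value of pup 1 bone marrow lay below that of pup 2 spleen, so the groups overlapped, although within each source bone marrow was above spleen (log2 fold change 1.75 ± 0.26, edgeR adjusted p = 0.0915). Junb, an AP-1 subunit that can restrain Jun, was at 56.2, 25.5 and 28.3 CPM in bone marrow and 35.0, 13.2 and 18.4 CPM in spleen (0.73 ± 0.09, edgeR adjusted p = 0.0677). Jund, the most constantly expressed Jun gene, was at 138, 110 and 120 CPM in bone marrow and 103, 77.6 and 88.0 CPM in spleen (0.46 ± 0.07, edgeR adjusted p = 0.0915). Fosl2 was at 8.87, 7.44 and 5.99 CPM in bone marrow and 5.18, 4.15 and 4.35 CPM in spleen (0.67 ± 0.16, edgeR adjusted p = 0.239). These 4 subunits, like Jun and Fosb, had bone marrow above spleen within each of the 3 sources.

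Zfp36, Btg2, Sik1 and Dusp1 had positive log2 fold changes without passing the test in the reported fit. With 302 cells drawn per sum, edgeR called Zfp36, Btg2 and Sik1 higher. Zfp36, whose protein degrades short-lived mRNAs, was at 18.5, 19.8 and 26.5 CPM in bone marrow and 11.8, 12.2 and 13.0 CPM in spleen (log2 fold change 0.83 ± 0.11, edgeR adjusted p = 0.0837). Btg2, an antiproliferative gene, was at 24.8, 24.7 and 17.5 CPM in bone marrow and 18.2, 12.3 and 7.07 CPM in spleen (0.93 ± 0.15, edgeR adjusted p = 0.138). Sik1, a kinase induced by cyclic AMP, was at 44.6, 34.5 and 37.9 CPM in bone marrow and 24.7, 23.3 and 26.0 CPM in spleen (0.64 ± 0.09, edgeR adjusted p = 0.0837). The phosphatase gene Dusp1 had a log2 fold change of 0.76 ± 0.15 (edgeR adjusted p = 0.205).

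Plk2, a polo-like kinase gene, was at 2.81, 3.80 and 2.76 CPM in bone marrow and 1.73, 1.25 and 1.50 CPM in spleen (1.06 ± 0.26, edgeR adjusted p = 0.240). It was counted with 26, 24 and 75 UMIs in bone marrow and 17, 37 and 37 in spleen. Nr4a2, an orphan nuclear receptor gene, had a log2 fold change of 0.53, Rhob, which encodes a small GTPase, of 0.43 and Ier3 of 0.37, each with bone marrow above spleen in all 3 sources and none passing the test. Egr1, Ier2 and Dusp2 lay nearer to 0, and Myc and Gem below it. Egr1, a zinc finger factor often measured as a sign of activation, was at 9.30, 14.7 and 12.6 CPM in bone marrow and 8.84, 12.04 and 11.0 CPM in spleen (0.19 ± 0.11, edgeR adjusted p = 0.4999). Ier2 was at 88.7, 57.5 and 71.3 CPM in bone marrow and 72.8, 59.1 and 71.0 CPM in spleen. Dusp2 was at 70.8, 68.3 and 64.2 CPM in bone marrow and 63.8, 62.6 and 62.0 CPM in spleen. Myc, a driver of growth and ribosome synthesis, was on the spleen side, at 52.5, 39.3 and 52.4 CPM in bone marrow and 68.4, 57.0 and 68.0 CPM in spleen (-0.42 ± 0.07, edgeR adjusted p = 0.192). Myc was called lower by DESeq2, and by edgeR with 302 cells drawn per sum, with no filter on low counts and without the pool. Gem, a small GTPase, was also on the spleen side in the reported fit (-0.34 ± 0.11, edgeR adjusted p = 0.302).

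Of the 42 genes listed as immediate early, 36 were tested, 3 rose (Jun, Fosb and Ppp1r15a) and none fell. The median log2 fold change of the 36 was 0.33, against -0.01 for all genes, and 28 of the 36 were positive, against 48.1% of all genes. 20 of the 36 had bone marrow above spleen in all 3 sources, against 16.8% of all genes, and 1 had spleen above bone marrow in all 3, against 17% of all genes. By source the median was 0.32 (pool), 0.27 (pup 1) and 0.44 (pup 2). Summed over the list, the level was 1328, 1074 and 1222 CPM in bone marrow and 1012, 912 and 959 CPM in spleen. Without the pool edgeR called 18 of 37 higher and 3 lower, against 6.98% and 11.2% of all genes. Without pup 1 it called 11 of 37 higher, against 0.252%, and without pup 2 it called 5 of 34, against 0.0591%, with none lower in either. The list was drawn up with earlier results of these data known, so its direction is not independent evidence.

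**Figure D2:**
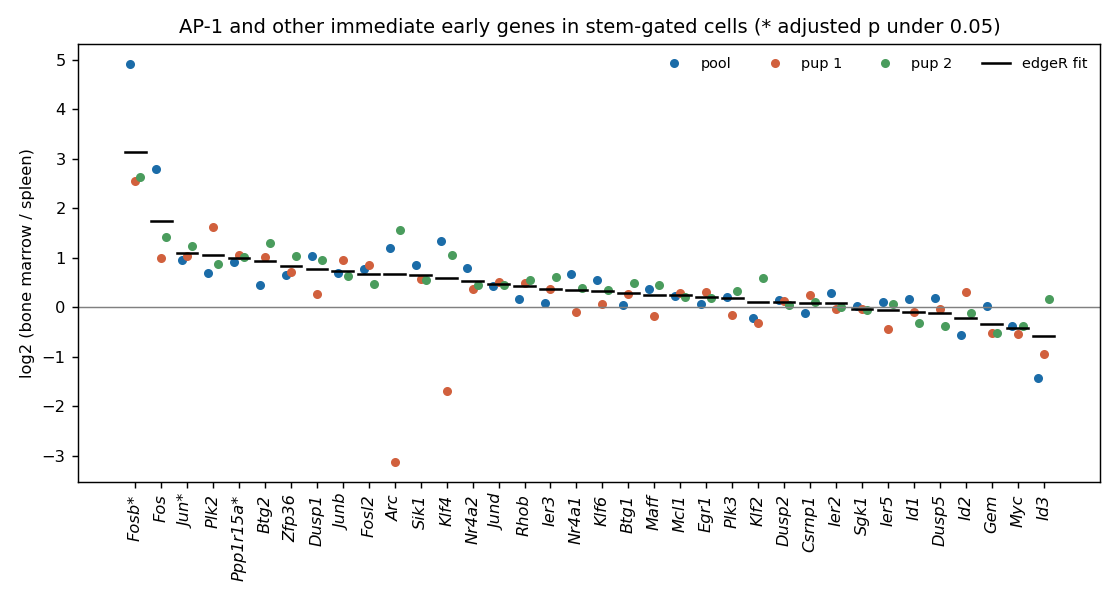
Log2 ratio of bone marrow over spleen (vertical axis) of the 36 immediate early genes tested, ordered by the fitted change (black bars). Points are the 3 sources, computed with 0.5 UMIs added, and asterisks mark the 3 genes with an adjusted p under 0.05. Most points on the left lie above 0 in each source, while Myc lies below 0 in all 3; the low points of Arc and Klf4 are pup 1, where few UMIs were counted.

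Of 18 NF-kappaB target genes 14 were tested, 1 (Nfkbiz) rose, none fell, and the median log2 fold change was 0.19. 12 of the 14 were positive, against 48.1% of all genes, 10 were above in all 3 sources, against 16.8%, and 2 were below, against 17%. Heat shock genes did not follow the immediate early genes. Of 14 listed, 11 were tested and none passed with all 3 sources, the median log2 fold change was -0.16, and 3 of the 11 were positive. Without the pool, edgeR called 6 of the 11 lower, against 11.2% of all genes, and 1 higher, against 6.98%. Hsp90ab1, the most abundant of these chaperones, was at 4149, 2498 and 3243 CPM in bone marrow and 3812, 3215 and 3741 CPM in spleen. Integrated stress response genes, the pathway that Ppp1r15a ends, had a median of -0.09 over 13 tested, none of which passed with all 3 sources. Without the pool, 6 of the 13 were called lower and 1 higher, against the same shares of all genes. Atf4, the main transcription factor of this pathway, was at 69.4, 58.8 and 80.3 CPM in bone marrow and 56.6, 75.2 and 90.3 CPM in spleen.

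Jun, Fosb, Ppp1r15a and Nfkbiz also rose within the stem-gated cells that had no Mki67 or Top2a UMI, transcripts of dividing cells, and within those that had one. Whether a cell has such a UMI moves with its depth, so cells without one are not shown to be out of cycle. The shares with one were 64.0%, 61.6% and 77.4% in bone marrow and 67.5%, 80.1% and 83.5% in spleen of the pool, pup 1 and pup 2. With cells thinned to 5000 UMIs they were 76.9%, 47.1% and 59.7% in bone marrow and 74.2%, 65.2% and 64.2% in spleen. Cells without one numbered 520, 116 and 301 in bone marrow and 494, 234 and 179 in spleen. There 11 genes rose (0.0983% of 11188 tested) and 1 fell (0.00894%). The 4 genes were among them, with log2 fold changes of 1.14 ± 0.10 for Jun, 3.13 ± 0.41 for Fosb, 1.26 ± 0.15 for Ppp1r15a and 1.16 ± 0.15 for Nfkbiz. Fos (2.26, edgeR adjusted p = 0.0310), Junb (1.01, 0.00813), Jund (0.55, 0.0365), Btg2 (1.28, 0.0349) and Coq10b (1.10, 0.00813), which encodes a coenzyme Q-binding protein, also rose in these cells. The other two were Txnip, an inhibitor of thioredoxin, at 0.54 (edgeR adjusted p = 0.0310), and Nrxn3, a neurexin, at 1.44 (0.0323). Crip1 fell by 0.76 on the log2 scale (edgeR adjusted p = 0.0348). In the cells with an Mki67 or Top2a UMI, 6 genes rose (0.0436% of 13773) and 1 fell (0.00726%). Jun (1.04), Fosb (3.01), Ppp1r15a (0.87), Nfkbiz (0.78), Fos (1.50) and Mpo (0.65) rose there, and Slc25a21 fell by 1.30 on the log2 scale (edgeR adjusted p = 0.0359). Mpo was used by the gate, so its value is a description. No test compared the change between the cells with and without such UMIs.

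**Figure D3:**
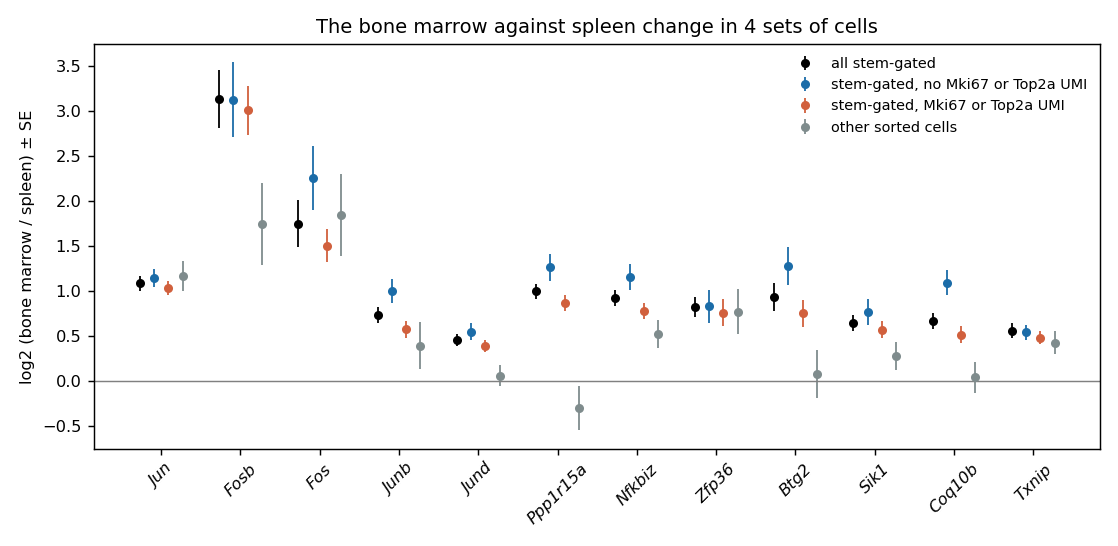
Log2 fold change of bone marrow over spleen with its SE (vertical axis) for 12 genes, in all stem-gated cells, in those without and with an Mki67 or Top2a UMI, and in the other cells of the same sorts. For Jun the sets lie between 1.04 and 1.17, while Ppp1r15a is at 1.00 in stem-gated and -0.30 in other cells.

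With all cells thinned to 5000 UMIs before the gate, 6 genes rose (0.0501% of 11976) and none fell (0%). They were Jun, Ppp1r15a, Fosb, Fos, Nfkbiz and Sik1. Thinning dropped the cells under 5000 UMIs and left 851, 278 and 1129 bone marrow cells and 944, 1062 and 879 spleen cells, so the UMIs per cell were equal but the summed depth was not.

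The cells sorted and loaded together with the stem-gated ones, which failed the gate, had a Jun change of like size. These other cells numbered 5107, 228 and 109 in bone marrow and 7521, 562 and 69 in spleen of the pool, pup 1 and pup 2. There Jun was at 66.8, 80.7 and 106 CPM (scaled by total UMIs) in bone marrow and 22.5, 37.3 and 60.8 CPM in spleen, with a log2 fold change of 1.17 ± 0.16 (edgeR adjusted p = 0.0505). The difference between the changes in stem-gated and other cells was -0.08 ± 0.17 (edgeR interaction test, adjusted p = 0.948). For Ppp1r15a the other cells were at 16.0, 12.2 and 20.6 CPM in bone marrow and 15.8, 25.5 and 17.1 CPM in spleen. That difference was 1.32 ± 0.25, and it did not pass the test (edgeR adjusted p = 0.146). It was 0.41 ± 0.15 for Nfkbiz (edgeR adjusted p = 0.402) and 1.81 ± 0.35 for Fosb (0.150). None of the 4 genes was thus shown to change differently in stem-gated cells. In the other cells the log2 fold change was 1.75 ± 0.46 for Fosb and 0.52 ± 0.15 for Nfkbiz. The median of the immediate early list was 0.42 there, against 0.33 in stem-gated cells. For oxidative phosphorylation genes it was -0.19 there, against -0.30 in stem-gated cells. The lists were not tested for a difference between these cells. The other cells differ in type between the tissues, and 17 of their 12694 genes rose and 17 fell (0.134% each). Over all 14353 genes the change was more towards bone marrow in stem-gated than in other cells for 1 (0.00697%) and more towards spleen for 5 (0.0348%). Against only the cells with more Mpo than Mecom UMIs and at least 2 of Mpo, these counts were 1 (0.00719% of 13911) and 11 (0.0791%). Such cells numbered 2117, 23 and 52 in bone marrow and 1509, 62 and 29 in spleen.

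Nuclear-encoded oxidative phosphorylation genes stood on the spleen side as a group, by small amounts. All 42 listed genes were tested. None passed the threshold in the fit with 3 sources, but none of the 42 had a positive log2 fold change, and the median was -0.30 against -0.01 for all genes. 32 of the 42 had spleen above bone marrow in all 3 sources, against 17% of all genes, and 31 had an unadjusted p under 0.05, against 6.94%. Summed over the list, the level was 13536, 6195 and 8704 CPM in bone marrow and 17155, 8097 and 10141 CPM in spleen. By source the median was -0.31 (pool), -0.41 (pup 1) and -0.22 (pup 2).

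Cox4i2, a subunit of cytochrome c oxidase induced by low oxygen, was at 10.1, 11.7 and 23.4 CPM in bone marrow and 12.9, 22.4 and 42.9 CPM in spleen (log2 fold change -0.77 ± 0.12, edgeR adjusted p = 0.101). Cox6a1, another subunit of that enzyme, was at 170, 137 and 202 CPM in bone marrow and 252, 197 and 245 CPM in spleen (-0.45 ± 0.08, edgeR adjusted p = 0.198). Cox8a, also of that enzyme, was at 640, 343 and 480 CPM in bone marrow and 884, 435 and 542 CPM in spleen (-0.33 ± 0.09, edgeR adjusted p = 0.246). Ndufa4 was at 791, 338 and 465 CPM in bone marrow and 975, 438 and 525 CPM in spleen. Cox4i1, the common form of the Cox4 subunit, did not separate the tissues, at 834, 383 and 502 CPM in bone marrow and 749, 477 and 552 CPM in spleen. How many of the list were called depended on the tool and on the sources. DESeq2 called 13 lower among 41 with an adjusted p, against 1.07% of all its genes. Without the pool edgeR called 38 of 42 lower, against 11.2% of all genes, without pup 1 it called 10, against 0.553%, and without pup 2 it called 0, against 0.0222%.

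The 13 mitochondrially encoded genes had a median log2 fold change of -0.17, and none passed with all 3 sources. Without the pool, edgeR called 4 of the 13 lower, against 11.2% of all genes, and 0 higher. Cytosolic ribosomal protein genes had a median of -0.12 over 36 tested, with 0 positive and none passing with all 3 sources. Their sum was 121090, 68782 and 83398 CPM in bone marrow and 141993, 81015 and 86510 CPM in spleen. Without pup 1, edgeR called 3 of the 36 lower, against 0.553% of all genes. Glycolysis and hypoxia genes had a median nearer to that of all genes, at -0.09 over 30 tested. Of these 11 were positive and none passed with all 3 sources. At an unadjusted p under 0.05, 6 were on the spleen side, against 6.94% of all genes, and 2 on the bone marrow side, against 5.79%. Without the pool, edgeR called 12 of the 30 lower, against 11.2% of all genes, and 1 higher, against 6.98%. Some of the genes with the lowest p on the spleen side were Uqcc2, an assembly factor of respiratory complex III, Eif2s2, a subunit of the initiation factor eIF2, Nars, an asparagine tRNA ligase, Ddx18, an RNA helicase, and Pin4, a prolyl isomerase. Their log2 fold changes lay between -0.48 and -0.39, each with an edgeR adjusted p of 0.198.

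**Figure D4:**
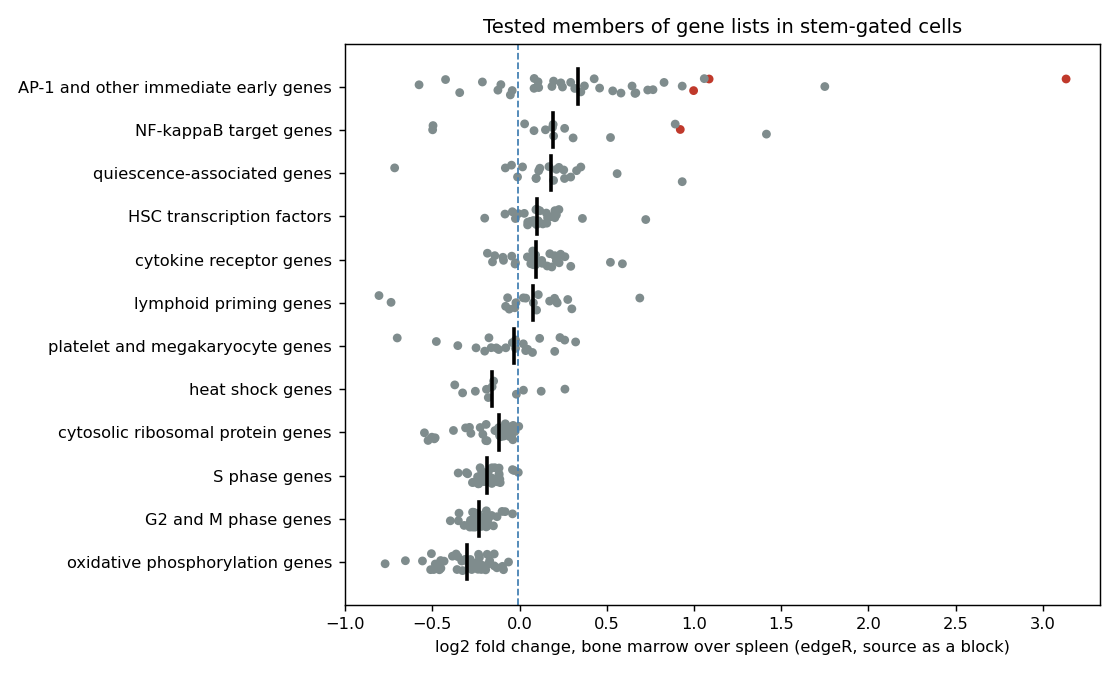
Log2 fold change of bone marrow over spleen (horizontal axis) of the tested members of selected lists. Each point is a gene, red where the adjusted p is under 0.05, black bars are list medians, and the dashed line is the median of all 14101 genes at -0.01. Immediate early genes reach 3.13, and all oxidative phosphorylation, S phase, G2 and M phase and ribosomal protein genes lie below 0.

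Cell cycle genes were on the spleen side in both pups and near 0 in the pool, a difference between sources that was not tested. Of 37 G2 and M phase genes none had a positive log2 fold change in the fit and none passed, with a median of -0.23, and by source it was 0.01 (pool), -0.49 (pup 1) and -0.18 (pup 2). Of 36 S phase genes none was positive and none passed, with a median of -0.19 and source medians of 0.05, -0.38 and -0.17. G2 and M phase genes summed to 7160, 5169 and 6631 CPM in bone marrow and 7753, 7270 and 7389 CPM in spleen. Top2a, which untangles DNA in mitosis, was at 635, 492 and 676 CPM in bone marrow and 662, 747 and 751 CPM in spleen (-0.27 ± 0.11, edgeR adjusted p = 0.380). Without the pool, edgeR called 33 G2 and M phase genes and 28 S phase genes lower, against 11.2% of all genes. Ccnd1, the cyclin that carries growth signals into G1, was at 132, 127 and 132 CPM in bone marrow and 140, 191 and 222 CPM in spleen (-0.48 ± 0.12, edgeR adjusted p = 0.240). Genes associated with quiescence had a median of 0.18 over 20 tested, 16 positive and none passing in the reported fit. Without the pool 8 were called higher, against 6.98% of all genes. Egr1, Nr4a1, Btg1, Btg2 and Klf2 are also on the immediate early list, and Btg1 and Btg2 were among the 8. Txnip, the quiescence gene closest to the threshold, was at 218, 457 and 298 CPM in bone marrow and 162, 275 and 209 CPM in spleen (0.56 ± 0.08, edgeR adjusted p = 0.0915). DESeq2 called Txnip higher.

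No gene of the stem cell programme passed with all 3 sources. Of 30 stem cell transcription factor genes 29 were tested, with a median of 0.10, 24 positive, and 16 with bone marrow above spleen in all 3 sources against 16.8% of all genes. Without the pool, 9 of the 29 were called higher, against 6.98% of all genes. Mecom and Hlf, which chose the cells, are among them. Etv6, needed for stem cells to survive in marrow, was at 1207, 1170 and 1190 CPM in bone marrow and 1146, 1149 and 1124 CPM in spleen. Msi2, an RNA-binding regulator of self-renewal, was at 840, 1118 and 1053 CPM in bone marrow and 800, 1052 and 997 CPM in spleen. Mllt3, which helps maintain stem cells, was at 317, 484 and 366 CPM in bone marrow and 316, 355 and 314 CPM in spleen (0.23 ± 0.10, edgeR adjusted p = 0.383).

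Receptors and adhesion molecules, through which a stem cell could sense the tissue it lies in, gave no call with all 3 sources. Without the pool, edgeR called 10 cytokine receptor genes higher and 1 lower of 33, and 6 homing and adhesion genes higher and 1 lower of 32, against 6.98% of all genes higher and 11.2% lower. Of 35 cytokine receptor genes 32 were tested, with a median of 0.09, and Flt3, the receptor of a lymphoid growth factor, was at 196, 301 and 261 CPM in bone marrow and 189, 249 and 213 CPM in spleen (0.21 ± 0.08, edgeR adjusted p = 0.348). Of 35 homing and adhesion genes 32 were tested, with a median of -0.03. Itga4, a chain of the integrin VLA-4 that binds Vcam1, was at 247, 423 and 328 CPM in bone marrow and 228, 335 and 272 CPM in spleen (0.24 ± 0.08, edgeR adjusted p = 0.304). Angpt1, the ligand of Tek, was at 1059, 1154 and 938 CPM in bone marrow and 1110, 1243 and 1050 CPM in spleen (-0.11 ± 0.08, edgeR adjusted p = 0.597). Smad7, a target and inhibitor of TGF-beta signalling, was at 43.1, 69.5 and 47.8 CPM in bone marrow and 43.6, 43.6 and 35.0 CPM in spleen (0.39 ± 0.12, edgeR adjusted p = 0.280).

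Notch targets had the lowest median of the signalling lists, at -0.36 over 8 tested of 14, with none passing in the reported fit. Myc and Ccnd1, described above, are 2 of the 8. DESeq2 called both lower, against 1.07% of all its genes, and no other gene of the list had an adjusted p there. Without the pool, edgeR also called both lower, against 11.2% of all genes. TGF-beta and BMP targets had a median of 0.00 over 16 tested. Fetal stem cell genes had a median of 0.09 over 18 tested and none passed with all 3 sources. Without the pool, edgeR called 4 of the 18 higher, against 6.98% of all genes, and 1 lower, against 11.2%. Hmga2, a fetal self-renewal gene, was at 491, 671 and 575 CPM in bone marrow and 486, 567 and 524 CPM in spleen. Interferon response genes had a median of -0.01 over 34 tested, MHC genes -0.03 over 20, cholesterol synthesis genes -0.05 over 24 and iron and heme genes -0.10 over 26. No member of these lists passed with all 3 sources. Without the pool, edgeR called 7 of 24 cholesterol and 4 of 26 iron and heme genes lower, against 11.2% of all genes. It called 3 of 35 interferon and 2 of 19 MHC genes higher there, against 6.98%, and 1 and 0 lower. Without pup 1 it called 4 of 20 MHC genes lower, against 0.553% of all genes.

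No lineage priming gene passed in the reported fit of all stem-gated cells with all 3 sources. When cells were split by Mki67 and Top2a UMIs, Mpo, on the myeloid progenitor list, was called only among those with one, as given above. In all stem-gated cells edgeR called Mpo higher without the pool and without pup 1. It also did so with 302 cells drawn per sum and with no filter on low counts. The gate limited Mpo, so these calls are a description. Without the pool, edgeR called 3 of 24 platelet and megakaryocyte genes, 3 of 20 lymphoid priming genes and 3 of 21 myeloid progenitor genes higher, against 6.98% of all genes, and 1, 0 and 1 of them lower, against 11.2%. Mpo was among these 3 myeloid progenitor genes. Platelet and megakaryocyte genes had a median of -0.03 over 22 tested, lymphoid priming genes 0.08 over 19 and myeloid progenitor genes 0.06 over 21. Prtn3, a granule protease, was at 281, 54.0 and 61.0 CPM in bone marrow and 207, 40.9 and 45.6 CPM in spleen (0.42 ± 0.07, edgeR adjusted p = 0.138). It was called higher by DESeq2, and by edgeR without the pool and without pup 1, but not without pup 2. Mpo, which the gate limited, was at 51.2, 32.6 and 30.0 CPM in bone marrow and 33.2, 25.0 and 19.9 CPM in spleen. In the cells outside the gate Prtn3 rose, by 1.25 on the log2 scale (edgeR adjusted p = 0.0450), and the part of free RNA in the Prtn3 of stem-gated cells was not tested. Trbc2, a T cell receptor constant gene, was at 21.3, 15.5 and 19.1 CPM in bone marrow and 29.7, 22.3 and 25.3 CPM in spleen (-0.46 ± 0.09, edgeR adjusted p = 0.198).

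Among the remaining genes with the lowest p, Coq10b was at 41.5, 30.1 and 28.1 CPM in bone marrow and 24.0, 18.2 and 19.6 CPM in spleen (0.67 ± 0.09, edgeR adjusted p = 0.0837). Nrxn3 was at 9.30, 22.2 and 11.8 CPM in bone marrow and 4.47, 11.97 and 7.07 CPM in spleen (0.86 ± 0.12, edgeR adjusted p = 0.0837). Gm26887, a predicted gene, was at 7.35, 6.49 and 3.60 CPM in bone marrow and 2.34, 1.55 and 1.50 CPM in spleen (1.64 ± 0.23, edgeR adjusted p = 0.0837). On the spleen side, Slc25a21, a mitochondrial carrier, was at 24.0, 0.475 and 0.0367 CPM in bone marrow and 56.7, 3.27 and 0.122 CPM in spleen (-1.37 ± 0.20, edgeR adjusted p = 0.0915), so it was mainly a gene of the pool. Rab26os, annotated opposite Rab26, was at 11.6, 2.85 and 3.38 CPM in bone marrow and 24.9, 5.06 and 6.50 CPM in spleen (-0.99 ± 0.14, edgeR adjusted p = 0.0837). The strand setting of the counting is not given in the sources used here, and whether reads of Rab26 entered the counts of Rab26os was not tested.

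The liver of the same pool gave 163 stem-gated cells in 1 library. Jun was at 94.3 CPM there, Ppp1r15a at 33.9, Nfkbiz at 47.1 and Fosb at 9.29, values with no replicate and no test. Each of these 4 genes was thus above the pool spleen in this library, and Jun and Fosb were below the pool bone marrow.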

How the data were processed

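Droplet single-cell RNA was counted per cell and gene. Values as deposited are unnormalised UMI counts of 32285 genes, which the authors made with Cell Ranger 7.0.0 (pool) and 8.0.1 (tubes) per the file headers, while the submitters' processing notes give version 7.0.0 throughout, with mm10. Coordinates are those of mm10 in GENCODE.

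From each hashtag its median in cells led by another tag was subtracted, after which a cell took its top hashtag if that was at least 3-fold the next and exceeded 50 counts. No doublet caller was used in the gate, and an alternative removed the highest Scrublet scores (scanpy 1.11.5). UMIs of stem-gated cells were summed per source and tissue, 6 sums in all, and tested in R 4.3.3 with edgeR 4.0.16 (TMM, filterByExpr, quasi-likelihood test, source as a block, Benjamini-Hochberg threshold 0.05), with DESeq2 1.42.0 as an alternative. The edgeR fit with all 3 sources was tested on simulated data. Both tissues of a source come from the same animals, and the deviations of the tissues within a source correlated at 0.74, 0.69 and 0.72, with 3 sources. With source as a block, p-values measure how the difference between the tissues varied over these 3 sources.

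The gate, the 34 gene lists and the tests were chosen with earlier results of these data known. Genes were named where they were called, had one of the 10 lowest p-values in a direction, were on the immediate early list, belonged to the gate or sort, or were the 3 highest of a list by mean CPM. Some named genes are not described. Genes of other cell fractions were named where called there. The split by Mki67 and Top2a with such UMIs present was added after the data were seen.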

Additional observations from a re-analysis of the deposited data

Results flagged for a closer look

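The change between bone marrow and spleen differed between stem-gated and other cells (edgeR interaction test) in 6 of 14353 genes, 1 higher (0.00697%) and 5 lower (0.0348%) in stem-gated cells. The cells outside the gate differ in type between the tissues. Ly6d, a surface gene of B cell precursors, had a difference of 3.31 on the log2 scale (adjusted p = 0.00415). In stem-gated cells it had 157, 3 and 1 UMIs in bone marrow and 39, 11 and 1 in spleen of the pool, pup 1 and pup 2, and in other cells it fell by 1.37. Vpreb1, a surrogate light chain gene, had a difference of -2.61 (adjusted p = 0.0283), with 3.30 in other cells and 0.50 in stem-gated cells. Spp1, which encodes osteopontin, had a difference of -3.90 (adjusted p = 0.0283), with 4.30 in other cells and 0.10 in stem-gated cells.

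The remaining genes belong to neutrophils and were abundant in pup 1. S100a8 had a difference of -1.61 (adjusted p = 0.00157), Stfa1 of -1.79 (adjusted p = 0.00388) and Retnlg of -2.49 (adjusted p = 0.0283). In other cells of pup 1, S100a8 was at 11617 CPM in bone marrow and 6740 CPM in spleen, while in stem-gated cells of pup 1 it was at 25.0 CPM in bone marrow and 40.7 CPM in spleen. The part of free RNA in these values was not tested.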

How the results depend on the processing

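There were 4 higher and 0 lower calls, as in the reported fit, under DESeq2's size factors in edgeR, a minimum of 10 UMIs in 3 sums, a stricter hashtag rule, no requirement on Hlf, Mecom at 2 or more UMIs, and removal of the highest Scrublet scores, and 6 and 0 with cells thinned to 5000 UMIs. Higher and lower calls numbered 0 and 0 without the replicate block, where 112 genes had an unadjusted p under 0.05, and 0 and 0 with batch replacing source as the term, where 463 had one. They numbered 7 and 45 with DESeq2, 190 and 271 with no filter on low counts, 50 and 18 with 302 cells drawn per sum, 11 and 1 in cells without Mki67 and Top2a UMIs, and 6 and 1 in the other stem-gated cells. Leaving out 1 source gave 8 to 1024 higher and 3 to 1649 lower calls. Without the pool there were 1024 and 1649, without pup 1 there were 36 and 79, and without pup 2 there were 8 and 3, and all 4 called genes were among the higher ones each time. The cause of these differences was not tested.

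Of 145 named genes, Hbb-bs alone changed sign with a call, at 0.59 without pup 1 against -0.05 with all sources. Shares of stem-gated cells after thinning moved to 17.0% in bone marrow and 15.3% in spleen of the pool, 65.0% in spleen of pup 1, and 80.1% in bone marrow and 77.7% in spleen of pup 2. Mecom at 2 or more UMIs gave 19.98% in bone marrow and 15.1% in spleen of the pool. With cells that held more Mpo than Mecom as the other cells, 11 genes had a lower difference, against 5. Depth limits Fosb, with 9 UMIs in spleen of the pool and 37 in spleen of pup 1, and Slc25a21, with 3 and 1 UMIs in bone marrow of pup 1 and pup 2.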

Other observations

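Meg3, a long non-coding RNA of an imprinted cluster, was singled out after its values were seen. It was at 23.1, 48.5 and 21.6 CPM in bone marrow and 15.4, 12.3 and 11.0 CPM in spleen of the pool, pup 1 and pup 2, with no overlap, and a log2 fold change of 1.23 ± 0.22 (edgeR adjusted p = 0.198). Meg3 is on the list of fetal stem cell genes, and edgeR called it higher with any 1 source left out.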
